A study of Mus musculus with 24 samples.

Results

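The comparison described here is that of CA1 tissue lacking Kat2a in forebrain excitatory neurons with control CA1, both from naive mice, which had been given no exposure. It rests on 12 of the 24 libraries of the series: 6 titled Kat2a_cKO_naive and 6 titled Control_naive. All genes were compared, in the direction cKO minus control, and 16360 of the 38355 genes in the count tables had enough reads to be tested. The mice were C57BL/6J, aged 3 to 5 months. Control mice had the genotype Kat2afl/fl, so that Kat2a was flanked by recombination sites but intact. The cKO (conditional knockout) mice had the genotype Kat2afl/fl ; CamKII_alpha-cre+, in which the Cre recombinase is driven by the CamKII alpha promoter, active in excitatory neurons of the forebrain. By their labels the controls carried the floxed alleles without Cre, so a response to Cre itself and a response to the loss of Kat2a cannot be told apart. Polyadenylated RNA of the dissected CA1 subfield was sequenced. The other 12 libraries came from mice of the same genotypes after 15 min of novelty exposure (5 control and 7 cKO) and are used only where the naive result is set beside them.

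Kat2a, also called GCN5, is a histone acetyltransferase that places acetyl groups on lysines of histone H3, a mark found at active promoters. It works as the catalytic subunit of the coactivator complexes SAGA and ATAC, which it shares, in alternative assemblies, with its close relative Kat2b (PCAF). CA1 is the output field of the hippocampus proper. Its pyramidal neurons are required for spatial and contextual memory, and histone acetylation in them has long been studied as a step in memory formation.

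Kat2a itself was lower in every cKO library. Its level in the control libraries had a lowest value of 59.3, a median of 62.7 and a highest value of 70.3 CPM (reads of a gene relative to the library's total, TMM-adjusted, on the usual CPM scale). In the cKO libraries these values were 32.5, 36.3 and 39.3 CPM, and the groups did not overlap. The transcript therefore fell to 57.0% of the control level (log2 fold change -0.81, SE 0.055, edgeR adjusted p = 2.75e-06; exact two-sided permutation p = 0.00216 over 924 splits, the smallest that 6 against 6 libraries allow). The counts cover the whole gene (chromosome 11, 100704746 to 100712465 in build GRCm38). Which exons Cre removes is not given in the sources used here, so reads from a shortened transcript of recombined cells and reads from cells without Cre cannot be told apart.

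Sequencing depth was 10700954 to 23374924 assigned reads in the control and 19619226 to 24543117 in the cKO libraries. The labels do not say that each library came from a separate mouse, so the p-values measure the spread between libraries. All 12 held 2 to 9 reads of Xist and at least 1084 of the Y-linked Ddx3y, the pattern of male tissue. All 13 fixed CA1 pyramidal markers were detected, and 2 of them, Wfs1 and Fibcd1, stood between 131 and 285 CPM in every library. All listed markers of CA2 and CA3, dentate granule neurons and subiculum were detected too, so detection does not separate CA1 from its neighbours. Summed CA2 and CA3 markers were 1016 to 1255 CPM in the controls and 1078 to 1270 CPM in cKO. The cKO libraries 1 and 5 stood apart from the other 4. Their summed markers of subiculum and deep cortex were 437.5 and 413.4 CPM, against 540.7 to 664.8 CPM in the other cKO libraries and 603 to 716 CPM in the controls. Their summed dentate granule markers were 399.1 and 448.8 CPM, against 232.4 to 273.5 CPM in the other cKO libraries and 267 to 433 CPM in the controls. Control library 4 held 86.9 CPM of the choroid plexus transcript Ttr, which was at most 5.79 CPM elsewhere. Without both of these cKO libraries, 18 of the 43 named genes other than Kat2a passed and 25 did not. In bulk tissue, fewer cells of a type and less RNA per cell cannot be told apart.

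**Figure D1:**
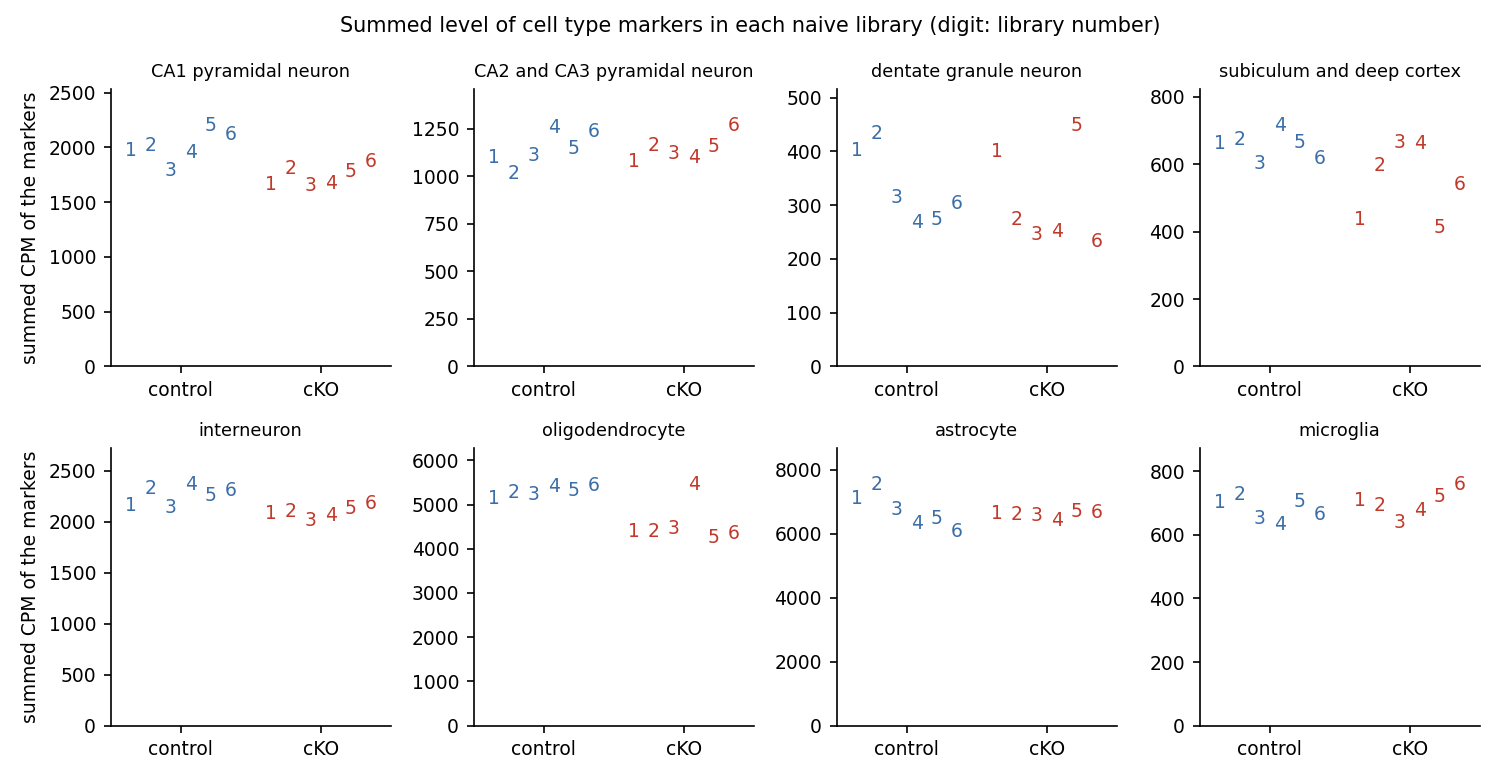
Summed CPM of the markers of 8 cell types in each naive library, with the digit giving the library number, controls in blue and cKO in red; each axis starts at 0. The cKO libraries 1 and 5 lie low for subiculum and high for dentate markers, for which control libraries 1 and 2 also lie high. For oligodendrocyte markers, 5 of the 6 cKO libraries lie below every control.

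In naive CA1, loss of Kat2a was accompanied by small changes in a limited number of genes. Of the 16360 genes tested, 131 passed at an edgeR adjusted p below 0.05, which is 0.801% of them. Of these, 50 were higher in cKO (0.306% of genes tested) and 81 were lower (0.495%). The median log2 fold change was 0.45 among the higher and -0.31 among the lower genes, and 0.003 over all genes tested. Only 24 of the 131 changed by more than 1.5-fold, 15 upward and 9 downward. Oxr1 was the sole gene that fell by more than 2-fold, while 7 genes rose by more than 2-fold. Without the adjustment, 2223 genes had p below 0.05. In 107 of the 131 the 6 control and 6 cKO libraries did not overlap, as they did not for 312 genes in all (1.91% of genes tested). DESeq2 called 465 genes on the same counts. The direction of all 131 was the same in each of the 12 fits that left out 1 library. These fits reuse the libraries on which the genes were called, so a sign could hardly turn. The number of calls changed when single libraries were left out. It was 40 without control library 6, 55 without control 5, 80 without control 4, 47 without cKO 2, 58 without cKO 1, 59 without cKO 6 and 80 without cKO 5. Without both cKO libraries 1 and 5, 55 genes passed, 43 of them among the 131.

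**Figure D2:**
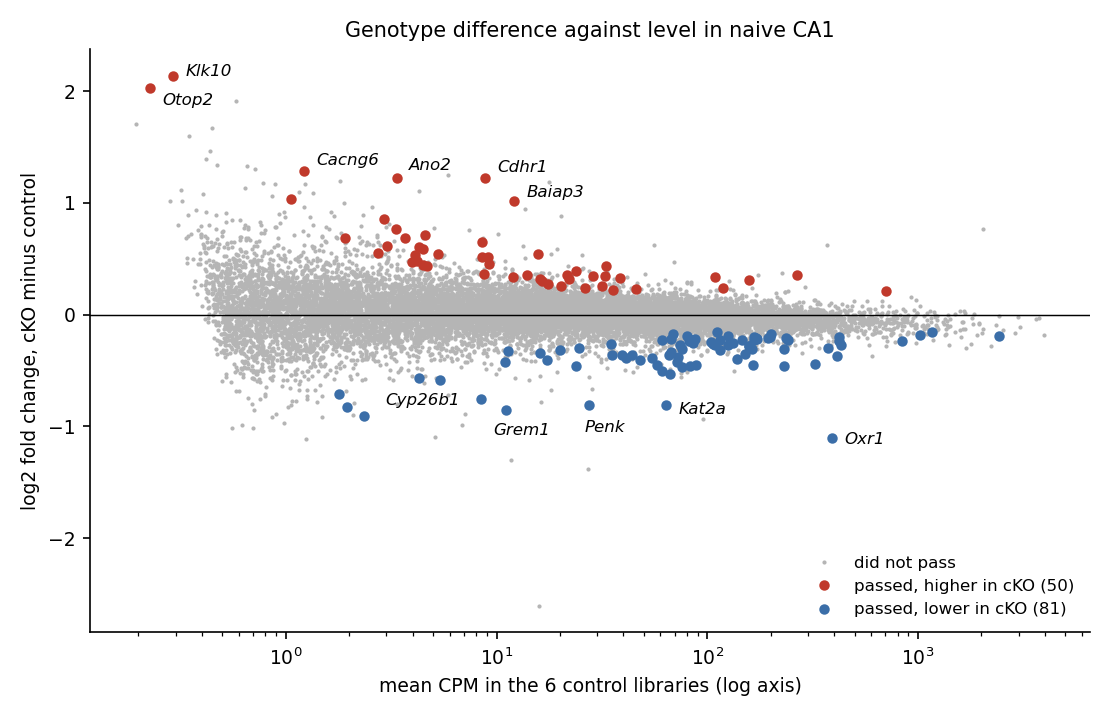
Each point is 1 of the genes tested, with its mean CPM in the 6 control libraries (log axis) against its log2 fold change, cKO minus control. Genes that passed upward (red, 50) lie mostly at low levels and genes that passed downward (blue, 81) mostly at high levels; Oxr1 lies alone at high level with a log2 fold change of -1.10.

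Among all genes that passed, the decrease of largest fold was that of Oxr1, and Kat2a itself stood at -0.81 on the same scale; the difference between these genes was not tested. Oxr1 (oxidation resistance 1) encodes a TLDc-domain protein that protects neurons against oxidative damage. Its control libraries held 373, 388 and 407 CPM at the lowest, median and highest, and the cKO libraries 143, 178 and 240 CPM, so that every cKO library lay far below every control. It fell to 46.5% of control (log2 fold change -1.10, SE 0.096, edgeR adjusted p = 0.000123). Oxr1 lies on chromosome 15 (41447482 to 41861048), away from Kat2a. Without cKO libraries 1 and 5 it was -0.98. Neither of the 2 tested genes starting within 1 Mb of Oxr1 passed, with Angpt1, a ligand of endothelial cells, at 0.22 and Zfpm2, a transcriptional cofactor, at -0.005. The 3 other TLDc genes tested did not pass either, and the one of smallest p, Ncoa7, stood at -0.13.

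Penk, which encodes the precursor of the enkephalin opioid peptides, fell to 57.2% of control. It ran from 21.8 to 31.9 CPM in the controls with a median of 27.8, and from 13.3 to 20.2 CPM in cKO with a median of 14.9. The groups did not overlap (log2 fold change -0.81, SE 0.106, edgeR adjusted p = 0.00488). Grem1, a secreted antagonist of bone morphogenetic proteins, fell to 55.2%. The lowest, median and highest levels of Grem1 were 8.45, 11.6 and 13.02 CPM in the controls and 4.84, 6.30 and 6.42 CPM in cKO, again with no overlap (log2 fold change -0.86, SE 0.111, edgeR adjusted p = 0.00488). Cyp26b1, the cytochrome P450 that breaks down retinoic acid, fell to 59.2%. Its controls spread more widely, from 6.30 to 11.3 CPM with a median of 7.87, and the cKO libraries lay between 3.80 and 6.06 CPM with a median of 4.91 (log2 fold change -0.76, SE 0.157, edgeR adjusted p = 0.0404). The Cyp26b1 call was less firm than the others: it held in 4 of the 12 fits that left out 1 library, and its adjusted p was 0.0921 without cKO library 2 and 0.0831 without cKO libraries 1 and 5.

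Among the 15 largest decreases were 2 further receptors of neuromodulators. Htr2c, a serotonin receptor coupled to phospholipase C, ran from 52.1 to 77.2 CPM in the controls (median 67.9) and from 38.3 to 52.7 CPM in cKO (median 46.3). The cKO libraries 2 and 4 just exceeded the lowest control (log2 fold change -0.53, SE 0.105, edgeR adjusted p = 0.0335). Hcrtr2, the receptor for orexins, lay at 3.44 to 5.64 CPM in the controls (median 4.24) and at 2.39 to 3.30 CPM in cKO (median 2.91), with no overlap (log2 fold change -0.57, SE 0.122, edgeR adjusted p = 0.0437). Neither call held in most of the fits that left out 1 library, though the log2 fold changes moved little. These ran from -0.592 to -0.483 for Htr2c and from -0.625 to -0.492 for Hcrtr2. Htr2c passed in 4 of the 12 fits, with an adjusted p of 0.0855 without control library 6, and Hcrtr2 in 1, with 0.101 without cKO library 1. Their adjusted p without cKO libraries 1 and 5 were 0.109 and 0.162.

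The genes Scn3b, Clcn2 and Rgs4 were also among the 15 largest decreases. Scn3b, an auxiliary beta subunit of voltage-gated sodium channels, ran from 259 to 387 CPM in the controls (median 327) and from 213 to 280.5 CPM in cKO (median 226). Its groups overlapped (log2 fold change -0.44, SE 0.087, edgeR adjusted p = 0.0303). Clcn2, a chloride channel opened by hyperpolarisation, lay between 68.7 and 82.8 CPM in the controls and between 47.0 and 62.3 CPM in cKO, with no overlap (log2 fold change -0.47, SE 0.065, edgeR adjusted p = 0.00488). Rgs4, which speeds the shut-off of G proteins, fell from a control range of 210 to 250.5 CPM to 136 to 196 CPM (log2 fold change -0.46, SE 0.077, edgeR adjusted p = 0.0160). Scn3b passed in 4 of the 12 fits, with its highest adjusted p, 0.0817, without cKO library 2. Clcn2 and Rgs4 passed in all 12. Without cKO libraries 1 and 5 the adjusted p was 0.0217 for Scn3b (log2 fold change -0.547), 0.0217 for Clcn2 and 0.0297 for Rgs4.

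The other decreases among the 15 largest were those of Nrn1, Lypd1, Cntnap5b and B3galt2, together with Fosl2. Nrn1 (neuritin), a membrane-anchored protein that promotes neurite and synapse growth, ran from 149 to 188 CPM in the controls and from 102 to 141 CPM in cKO, with no overlap (log2 fold change -0.46, SE 0.088, edgeR adjusted p = 0.0286). Lypd1, a Ly6-family protein that modulates nicotinic receptors, lay at 50.4 to 71.9 CPM in the controls and 38.0 to 47.9 CPM in cKO (log2 fold change -0.45). Cntnap5b, a contactin-associated adhesion protein of the neurexin superfamily, lay at 20.9 to 28.6 CPM against 15.4 to 18.7 CPM in cKO (log2 fold change -0.46). These values do not overlap for any of the 3 genes. B3galt2, a Golgi galactosyltransferase, lay at 80.7 to 99.2 CPM in the controls and 54.0 to 72.8 CPM in cKO (log2 fold change -0.45). Nrn1 passed in 6 of the 12 fits (adjusted p 0.0789 without control library 6), Lypd1 in 11 (0.0522 without control library 6), and Cntnap5b and B3galt2 in all. Without cKO libraries 1 and 5 the adjusted p was 0.0885 for Lypd1, 0.0808 for Cntnap5b, 0.0310 for B3galt2 and 0.0130 for Nrn1, which was then at -0.575.

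Fosl2, a partner of Jun in the transcription factor AP-1, was the one gene to pass in the list of 40 immediate early genes. It ran from 48.5 to 71.0 CPM in the controls (median 61.5) and from 35.0 to 49.7 CPM in cKO (median 44.4). The ranges overlapped, since 2 cKO libraries exceeded the lowest control (log2 fold change -0.51, SE 0.110, edgeR adjusted p = 0.0479). The lowest cKO values, 35.0 and 35.3 CPM, were those of libraries 1 and 5, and without these libraries the difference was -0.38 with an adjusted p of 0.132. The call held in 2 of the 12 fits and was at an adjusted p of 0.108 without control library 5.

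The largest increase among well-covered genes was that of Cdhr1, a photoreceptor cadherin needed for outer segment structure, which was at 234% of control. Its lowest, median and highest levels were 7.55, 8.14 and 10.8 CPM in the controls and 15.1, 19.0 and 28.6 CPM in cKO, with no overlap (log2 fold change 1.22, SE 0.143, edgeR adjusted p = 0.00256). The highest cKO values, 28.6 and 21.6 CPM, were in libraries 1 and 5, which also had the highest dentate sums among the cKO libraries. The highest control values, 10.45 and 10.81 CPM, were in libraries 1 and 2, which had the highest dentate sums among the controls, at 400.8 and 432.5 CPM. The part of the dentate markers in the result was not tested. Without cKO libraries 1 and 5, and with all controls kept, Cdhr1 was at 1.04 with an adjusted p of 0.000983. Ano2, a calcium-activated chloride channel of sensory neurons that is also used by hippocampal pyramidal cells, rose to 233% of control. It ran from 2.20 to 4.63 CPM in the controls (median 3.35) and from 4.68 to 10.7 CPM in cKO (median 7.86), where the lowest cKO library lay just above the highest control (log2 fold change 1.22, SE 0.211, edgeR adjusted p = 0.0165). Baiap3, a Munc13-related protein of vesicle trafficking and dense-core vesicle release, rose to 203%. The controls of Baiap3 formed separate levels, 8.89 to 9.70 CPM in libraries 1 to 3 and 14.7 to 15.3 CPM in libraries 4 to 6, and all cKO libraries lay above both, at 20.1 to 29.4 CPM (log2 fold change 1.02, SE 0.157, edgeR adjusted p = 0.0123). These 3 genes passed in all 12 fits that left out 1 library.

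Further increases came from genes with low levels in CA1. Epor, the erythropoietin receptor, lay at 3.84 to 5.45 CPM in the controls and at 6.25 to 8.32 CPM in cKO, with no overlap (log2 fold change 0.72, SE 0.099, edgeR adjusted p = 0.00488). Slc29a1, an equilibrative nucleoside transporter that carries adenosine, rose from 14.03 to 18.8 CPM in the controls to 20.4 to 26.9 CPM in cKO (log2 fold change 0.54, SE 0.078, edgeR adjusted p = 0.00674). Cpxm2, a carboxypeptidase-like secreted protein without known enzymatic activity, lay at 1.91 to 3.46 CPM against 4.42 to 7.90 CPM in cKO (log2 fold change 0.86, SE 0.167, edgeR adjusted p = 0.0256). Epor and Slc29a1 passed in all 12 fits, and Cpxm2 in 7, with an adjusted p of 0.0732 without control library 6 and 0.0605 without cKO libraries 1 and 5.

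The other 9 of the 15 largest increases lay between 0.53 and 0.68 on the log2 scale. They were Clspn (0.68), an adaptor of the DNA replication checkpoint; Zfp185 (0.68), an actin-associated LIM protein; Vwa3a (0.65); Myo1h (0.61), a class I myosin; Sypl2 (0.61), a synaptophysin-like protein of muscle membranes; Mapk12 (0.58), the gamma isoform of the p38 kinase; Spint1 (0.55), an inhibitor of serine proteases; Slc26a8 (0.54), an anion transporter known from testis; and Blnk (0.53), a B cell signalling linker. The control and cKO libraries did not overlap in 8 of them, and Zfp185 did overlap. Mapk12 passed in 10 of the 12 fits, Slc26a8 in 9, Clspn in 8, Sypl2 in 6, Blnk in 5, Zfp185 in 4, Vwa3a and Myo1h in 1, and Spint1 in none. Their highest adjusted p over these fits ran from 0.0609 for Mapk12, without control library 6, to 0.111 for Spint1, without cKO library 2. Without cKO libraries 1 and 5 none of the 9 passed, at adjusted p of 0.0824 to 0.118.

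Among the calls with a mean under 50 reads, 4 rose by more than 2-fold. Klk10, a secreted serine protease of the kallikrein family, had 2 to 7 reads in the control libraries and 16 to 54 in cKO (log2 fold change 2.14, SE 0.359, edgeR adjusted p = 0.0160). Otop2, a proton channel, had 1 to 10 reads in the controls and 13 to 36 in cKO (log2 fold change 2.02, SE 0.392, edgeR adjusted p = 0.0253). Cacng6, a gamma subunit of voltage-gated calcium channels, had 11 to 28 and 47 to 99 reads (log2 fold change 1.29, SE 0.217, edgeR adjusted p = 0.0160), and Adamts18, a secreted metalloprotease, 7 to 29 and 29 to 73 reads (log2 fold change 1.04, SE 0.221, edgeR adjusted p = 0.0437). On the CPM scale none of the 4 overlapped between groups. Klk10 and Cacng6 passed in all 12 fits, Otop2 in 7 and Adamts18 in 2. The remaining calls with a mean under 50 reads were lower in cKO: Zfp934 (-0.71), 2410018L13Rik (-0.91) and AC140785.1 (-0.83), which held in 2, 2 and 1 of the 12 fits. These 7 genes were named after their values were seen.

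**Figure D3:**
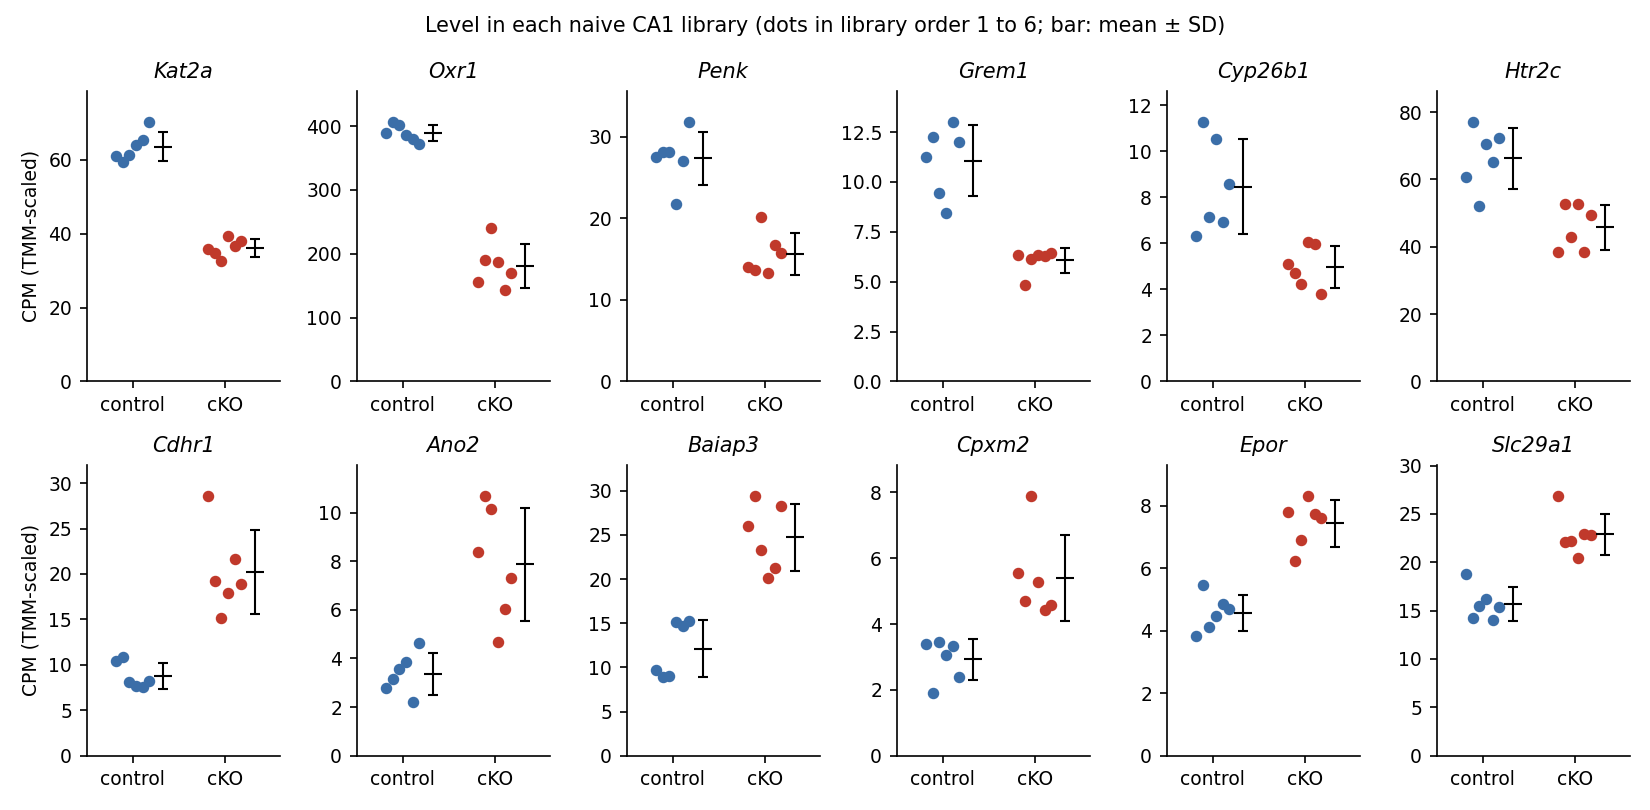
CPM (TMM-scaled) of 12 named genes in each of the 6 control (blue) and 6 cKO (red) naive libraries, dots in library order, with mean ± SD in black; every axis starts at 0. In 11 of the 12 genes the groups are fully separate, and in Htr2c the cKO libraries 2 and 4 just exceed the lowest control.

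Promoter sequences were available for part of the genes that passed: RefSeq windows from 250 bases before to 50 after the start (build GRCm38.p6) matched 44 of the 50 higher, 49 of the 81 lower and 11856 of the 16360 tested genes. The bases before the start are shown for 3 named genes described above: Cdhr1, which rose, and Grem1 and Cyp26b1, which fell. Among genes that passed with a mean of at least 50 reads, Cdhr1 had the largest increase, and Grem1 and Cyp26b1 had the largest decreases of genes with a window, Kat2a left out. They are written on the strand of the gene, and capitals mark a TATA box (TATAAA) or a match to the NF-kappa-B consensus on either strand. The Cdhr1 window is chr14:37098348-37098597, that of Grem1 chr2:113758649-113758898 and that of Cyp26b1 chr6:84593811-84594060, each on the minus strand. The authors' table places Cyp26b1 at 84571414 to 84593908, so the part of its stretch nearest the RefSeq start lies inside the gene as placed there.
Cdhr1: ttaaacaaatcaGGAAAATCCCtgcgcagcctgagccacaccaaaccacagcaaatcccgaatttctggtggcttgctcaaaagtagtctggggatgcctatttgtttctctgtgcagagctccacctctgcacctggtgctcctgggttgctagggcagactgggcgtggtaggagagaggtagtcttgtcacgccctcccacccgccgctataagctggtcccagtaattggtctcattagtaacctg
Grem1: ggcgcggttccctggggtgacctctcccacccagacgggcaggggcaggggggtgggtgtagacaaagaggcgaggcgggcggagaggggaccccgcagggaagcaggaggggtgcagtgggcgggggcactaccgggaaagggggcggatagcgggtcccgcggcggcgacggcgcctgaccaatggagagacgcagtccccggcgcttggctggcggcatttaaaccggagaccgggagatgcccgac
Cyp26b1: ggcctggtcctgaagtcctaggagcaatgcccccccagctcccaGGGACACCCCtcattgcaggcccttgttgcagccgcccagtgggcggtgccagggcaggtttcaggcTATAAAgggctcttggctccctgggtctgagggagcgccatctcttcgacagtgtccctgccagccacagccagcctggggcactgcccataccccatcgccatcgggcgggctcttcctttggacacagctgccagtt
The Cdhr1 stretch had a GC content of 53.2% and held the NF-kappa-B consensus on the strand opposite to the gene. The Grem1 stretch had a GC content of 72.0% and no match. That of Cyp26b1 had 64.8%, a TATA box and the NF-kappa-B consensus, whose match reads on both strands. Over the whole windows, the NF-kappa-B consensus was found for 9 of the 44 higher genes (20.5%) and 8 of the 49 lower genes (16.3%), against 1492 of 11856 tested genes (12.6%). A TATA box was found for 0 of the higher and 5 of the lower genes (10.2%), against 8.93% of tested genes. The cyclic AMP response element TGACGTCA was found for 0 and 1 (2.04%), against 3.42%. No motif overlapped another in the stretches shown. A match is a description of letters and not evidence of a bound factor.

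The counts in the gene lists that follow stand beside the shares over all genes tested, of which 0.306% were higher and 0.495% lower. In the 3 lists of SAGA and ATAC subunits, other acetyltransferases and deacetylases, no gene other than Kat2a passed. Of 28 subunits of SAGA and ATAC tested, Kat2a alone passed, and the list's median log2 fold change was 0.03. Kat2b, the paralogue that can take the place of Kat2a in both complexes, was at -0.11 (SE 0.064, edgeR adjusted p = 0.495); it was singled out after its values were seen. Of 14 other histone acetyltransferases none passed (median 0.04), and Kat6a had the smallest p at 0.11. Of 18 histone deacetylases and sirtuins none passed (median 0.001), with Hdac3, the deacetylase of the NCoR complex, at -0.11. Among 20 histone genes tested of 74 listed, Hist3h2a fell (log2 fold change -0.41, SE 0.057, edgeR adjusted p = 0.00488). Hist3h2a lay at 15.8 to 18.3 CPM in the controls and at 12.4 to 13.9 CPM in cKO, with no overlap, and passed in all 12 fits. The median of the histone list was -0.02, and most histone transcripts lack the poly(A) tail that this protocol selects.

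Transmitter receptor lists showed decreases without increases. Of 17 ionotropic glutamate receptor genes, Gria3 fell and 13 lay below 0 (median -0.09). Gria3, an AMPA receptor subunit, ran from 352 to 428 CPM in the controls (median 369) and from 291 to 332 CPM in cKO (median 296), with no overlap (log2 fold change -0.30, SE 0.051, edgeR adjusted p = 0.0160). Of 7 metabotropic receptor genes, Grm5 fell (median of the list -0.12). Grm5, which couples to phospholipase C at the rim of the postsynaptic density, lay at 405 to 463 CPM against 342 to 385 CPM in cKO (log2 fold change -0.20, SE 0.043, edgeR adjusted p = 0.0417). Of 13 GABA-A receptor subunits, Gabrb2 fell and 11 lay below 0 (median -0.16). Gabrb2, a beta subunit of the inhibitory chloride channel, lay at 188 to 212 CPM against 158 to 185 CPM in cKO (log2 fold change -0.20, SE 0.045, edgeR adjusted p = 0.0479). Among 21 monoamine receptors, Htr2c (above) and Htr2a fell (median -0.08), and Htr2a, another phospholipase C-coupled serotonin receptor, was at 9.98 to 11.9 CPM against 6.89 to 9.53 CPM (log2 fold change -0.43, SE 0.089, edgeR adjusted p = 0.0404). None of 12 acetylcholine receptors passed (median -0.05). The Gria3 call held in 11 of the 12 fits (adjusted p 0.0512 without cKO library 2) and that of Htr2a in 2 (0.0887 without control library 6). Those of Grm5 and Gabrb2 held in 1 each (0.0933 and 0.110 without control library 5). Without cKO libraries 1 and 5, Gria3 stayed below 0.05 at 0.0310, while the adjusted p was 0.105 for Grm5, 0.183 for Gabrb2 and 0.103 for Htr2a.

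Peptide and channel lists followed. Of 22 neuropeptide precursors tested, Penk alone fell, 17 lay below 0, and the median was -0.23. Of 28 neuropeptide receptors, Hcrtr2 alone fell (median -0.05). None of 56 potassium channel genes passed (median -0.02), with Kcnc2, a fast delayed rectifier, closest at -0.23 (edgeR adjusted p = 0.0533). Scn3b alone fell among 14 sodium and Hcn channel genes (median -0.05 over the list). None of 31 genes of calcium channels and stores passed (median -0.01). Among 44 genes of calcium and cyclic AMP signalling, 1 rose and none fell (median -0.04). It was Rapgef4, the cyclic AMP-activated exchange factor Epac2 (log2 fold change 0.21, SE 0.042, edgeR adjusted p = 0.0303). Rapgef4 ran from 668 to 747 CPM in the controls and from 738 to 871 CPM in cKO, so the groups overlapped. It passed in 4 of the 12 fits with an adjusted p of 0.0935 without control library 6. Without cKO libraries 1 and 5 it was at 0.249 with an adjusted p of 0.0310.

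At the synapse itself, 1 of 34 genes of the presynaptic release machinery fell and 25 lay below 0 (median -0.07). This was Vamp2, the vesicle SNARE of fast transmitter release (log2 fold change -0.19, SE 0.035, edgeR adjusted p = 0.0251). Vamp2 lay at 991 to 1115 CPM in the controls and at 874 to 929 CPM in cKO, with no overlap, and passed in 5 of the 12 fits. Its adjusted p was 0.0753 without cKO library 2 and 0.118 without cKO libraries 1 and 5. None of 32 genes of postsynaptic scaffold and adhesion passed (median -0.06), and Homer1 had the smallest p at -0.20. None of 24 clustered protocadherins passed (median -0.10). None of 27 neurotrophins, FGFs and their receptors passed (median -0.09).

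Of 85 cytosolic ribosomal protein genes tested, one of the longest lists, 5 were lower (against 0.495% of all genes tested), none was higher, 68 lay below 0 and the median was -0.14. Rps15a, of the small subunit, lay at 121 to 131 CPM in the controls and 97.2 to 110 CPM in cKO, with no overlap (log2 fold change -0.27, SE 0.040, edgeR adjusted p = 0.00692). Rpl23, of the large subunit, lay at 31.7 to 37.3 against 25.2 to 29.1 CPM (log2 fold change -0.37, SE 0.057, edgeR adjusted p = 0.00977). Rpl15 (-0.36), Rps4x (-0.25) and Rpl7 (-0.22) were the others, and none of the 5 overlapped between groups. Rps15a, Rpl23 and Rpl15 passed in all 12 fits, Rps4x and Rpl7 in 9, with Rps4x at an adjusted p of 0.0577 without control library 6. Rpl7 was named after its values were seen. Without cKO libraries 1 and 5 the calls were 2 and the median of the list -0.10, with Rpl15 at an adjusted p of 0.0653 and Rps4x at 0.0920. Ribosomal proteins have many near-identical processed copies in the genome, and reads that match several were set aside in the authors' counting, so the level of a single member is uncertain. The share of reads with no unique position was 15.8 to 18.0% in the controls and 15.0 to 16.2% in cKO, and its part in these differences was not tested. The extremes of the list, Rpl34 at -1.39 and Rps3a3 at 1.19, did not pass. Of 76 mitochondrial ribosomal protein genes none passed (median 0.03), and of 88 nuclear-encoded respiratory chain genes none passed (median 0.00).

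Inflammatory and activity-linked lists yielded few calls. None of 34 genes of the NF-kappa-B pathway passed, 26 lay above 0 and the median was 0.07; the smallest p was that of Tradd, an adaptor of the TNF receptor, at 0.31 (edgeR adjusted p = 0.239). None of 29 MHC class I and interferon genes passed, 24 lay above 0 and the median was 0.14; Tapbp, which loads peptides onto class I molecules, stood at 0.26 (edgeR adjusted p = 0.104). Among 40 immediate early genes, Fosl2 alone passed and the median was -0.04. No member of the NF-kappa-B or MHC list was free of overlap between the groups, against 1.91% of all genes tested.

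In signalling and stress lists, single members moved. Grem1 was the one call among 45 genes of BMP and TGF-beta signalling (median -0.02) and Cyp26b1 the one among 18 of retinoic acid signalling (median -0.01). None of 21 Notch genes passed (median 0.08). Of 28 antioxidant enzymes and regulators, Gsr, glutathione reductase, rose (log2 fold change 0.24, SE 0.052, edgeR adjusted p = 0.0437) while the list's median was 0.02. Gsr lay at 24.6 to 28.9 CPM in the controls and 29.1 to 32.7 CPM in cKO, and passed in 3 of the 12 fits, with an adjusted p of 0.110 without control library 5 and 0.160 without cKO libraries 1 and 5. None of 27 chaperone and protein-folding stress genes passed (median -0.08), and none of 40 collagens (median 0.04). Within 1 Mb of Kat2a, 56 of 135 genes were tested and none passed (median 0.03).

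**Figure D4:**
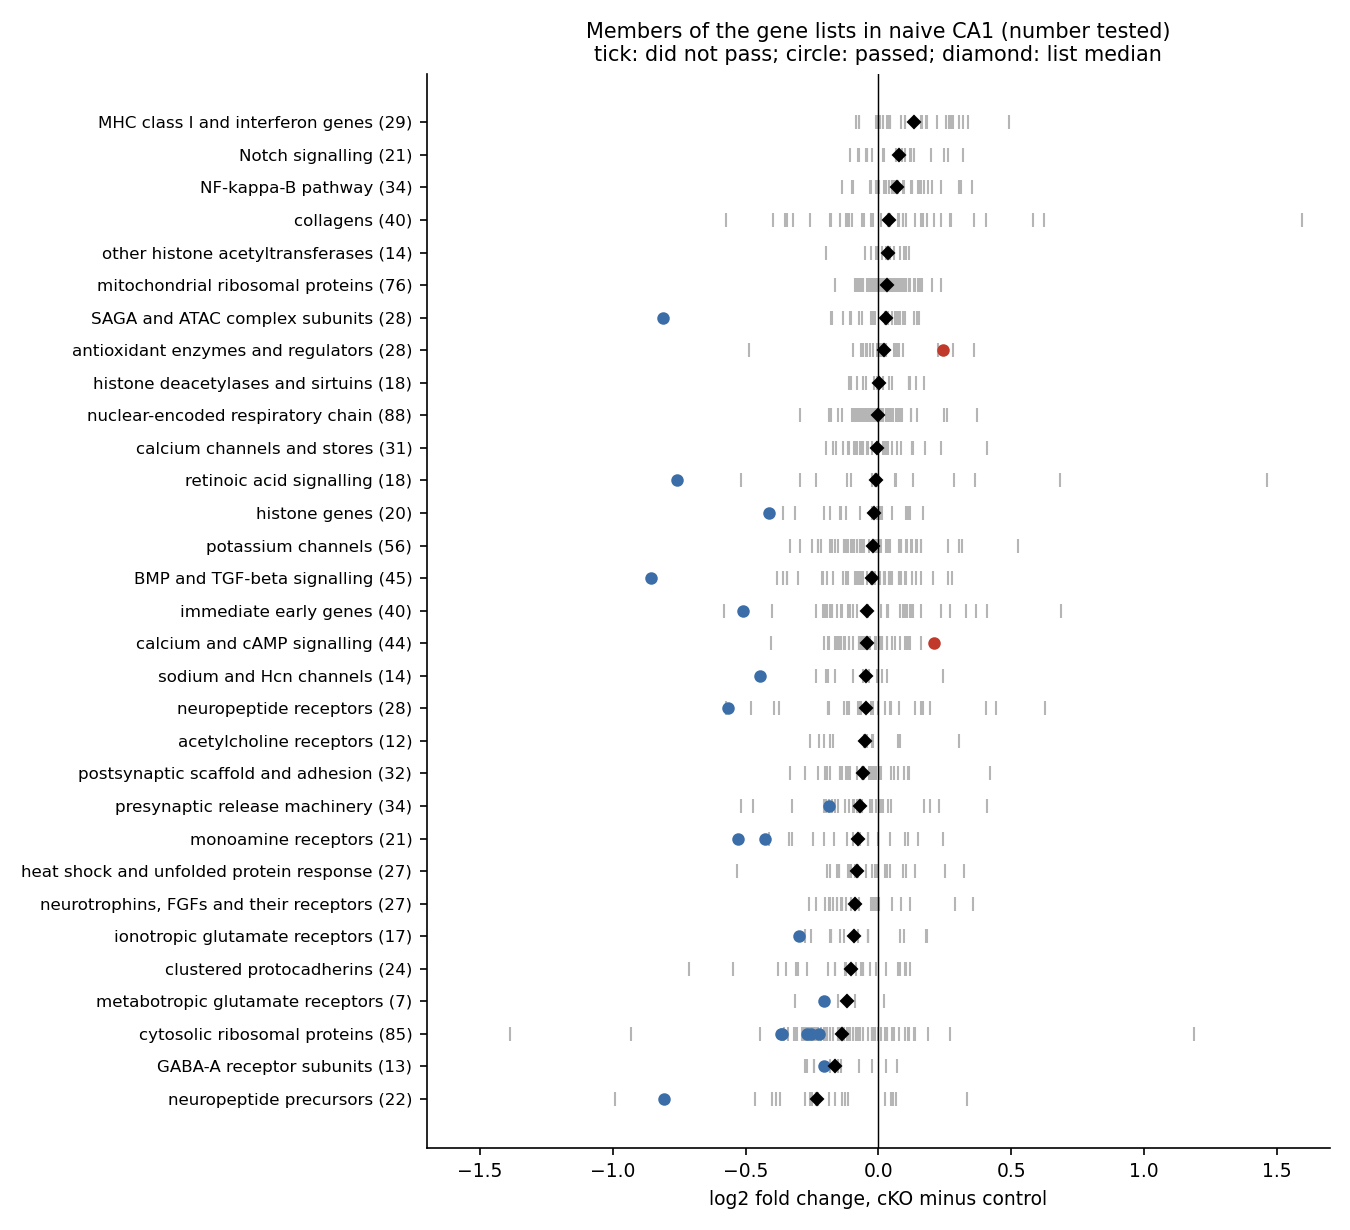
Log2 fold change, cKO minus control, of each tested member of 31 functional gene lists (number tested in brackets): grey ticks did not pass, blue circles passed lower, red circles passed higher, and black diamonds mark list medians. Circles are few in every list, and the list with most of them is that of cytosolic ribosomal proteins, with 5 lower.

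Markers of the cell types in the tissue moved as follows. Of 13 CA1 pyramidal markers 12 lay below 0 (median -0.21) and Ndst3, a heparan sulphate sulphotransferase, passed (log2 fold change -0.38, SE 0.072, edgeR adjusted p = 0.0253). Ndst3 lay at 60.7 to 81.5 CPM in the controls and at 50.5 to 64.5 CPM in cKO, and the groups overlapped. The summed level of the CA1 markers was 1792 to 2204 CPM in the controls and 1653 to 1872 CPM in cKO. All 14 oligodendrocyte markers lay below 0 (median -0.22), and Ugt8a, the enzyme of galactocerebroside synthesis in myelin, passed (log2 fold change -0.39, SE 0.084, edgeR adjusted p = 0.0469). Their sum was 5129 to 5425 CPM in the controls and 4254 to 4459 CPM in 5 cKO libraries, while cKO library 4 was at the control level with 5454 CPM. All 12 markers of subiculum and deep cortex lay below 0 (median -0.19) and none passed; without cKO libraries 1 and 5 the median was -0.06. The call of Ndst3 held in 3 of the 12 fits (adjusted p 0.0652 without control library 5) and that of Ugt8a in 1 (0.117 without cKO library 2). When cKO libraries 1 and 5 were left out they were at 0.110 and 0.132. Which of the 131 calls belong to these shifts in markers was not tested.

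The remaining marker lists held no call. Of 18 interneuron markers 16 lay below 0 (median -0.09), with sums of 2143 to 2364 CPM in the controls and 2010 to 2181 CPM in cKO. Of 18 markers of endothelium and pericytes 16 lay below 0 (median -0.13), with sums of 431 to 514 CPM and 351 to 452 CPM. Below 0 lay also 7 of 14 CA2 and CA3 markers (median -0.003), 5 of 12 dentate markers (median 0.01), 8 of 14 astrocyte markers (median -0.02), 9 of 12 markers of oligodendrocyte precursors (median -0.06) and 4 of 16 of microglia (median 0.04). The dentate median was -0.37 without cKO libraries 1 and 5. Choroid plexus and ependyma markers were tested for 9 of 14 members (median -0.15) and summed to 205 to 333 CPM in the controls and 148 to 208 CPM in cKO. Of the 11 markers of meninges and blood, 10 lay above 0 (median 0.36), and their sum was highest in cKO library 3, at 711.9 CPM against 224 to 421 CPM in the other 11 libraries. Dcn stands in both the CA1 and the meninges list. No listed marker was at 0 in all libraries.

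In 34 of the 131 genes the call did not depend on any single library: 13 higher and 21 lower genes passed in all 12 fits. Beside those described above, and singled out after their values were seen, they include Mapk3, the kinase ERK1, which rose from 148 to 169 CPM in the controls to 182 to 205 CPM in cKO (log2 fold change 0.31, SE 0.047, edgeR adjusted p = 0.00815). Pnck, a calcium/calmodulin-dependent kinase, rose from 98.9 to 116 CPM to 124 to 150 CPM (log2 fold change 0.34, SE 0.058, edgeR adjusted p = 0.0160). Neither kinase overlapped between groups. Polr1a, the largest subunit of RNA polymerase I, rose by 0.23, Abcc8, the sulphonylurea receptor of ATP-sensitive potassium channels, by 0.35, Hsd3b7, an enzyme of bile acid synthesis that acts on oxysterols, by 0.51 and Cryz, a quinone reductase, by 0.35. On the lower side were the adhesion genes Slitrk4 (-0.42), Pcdh17 (-0.31) and Lrrn3 (-0.26), the Hcn channel partner Pex5l (-0.27), also called TRIP8b, the natriuretic peptide receptor Npr3 (-0.36) and the chaperonin subunit Cct4 (-0.27). Of the 34 genes, 29 also passed between the genotypes after novelty. The others did not, with edgeR adjusted p of 0.167 for Abcc8, 0.0573 for Cryz, 0.3 for Npr3, 0.0561 for Cct4 and 0.14 for Hist3h2a.

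The libraries taken after novelty exposure are a separate set in which the same genotypes were compared, so they share no sample with the naive comparison. There, 733 of 16188 genes passed (4.53%), 344 higher and 389 lower in cKO. Of the 131 naive calls 130 were tested after novelty, and all 130 had the same sign, against 68.6% of the 16095 genes tested in both. In that set 86 of them passed too, 28 of 49 higher and 58 of 81 lower genes; this is 65.6% of the naive calls and 11.7% of the calls after novelty. Oxr1 was at -1.09 (edgeR adjusted p = 0.000254), Penk at -0.96 (6.27e-06), Grem1 at -1.04 (0.00370), Cyp26b1 at -0.80 (0.0304), Cdhr1 at 1.08 (0.000356), Ano2 at 0.94 (0.00256) and Baiap3 at 1.46 (8.98e-05). For Oxr1 the control libraries after novelty ran from 343 to 476 CPM and the cKO libraries from 149 to 220 CPM, and for Baiap3 from 6.08 to 10.6 CPM and from 20.8 to 29.6 CPM. In both genes the groups did not overlap there either. Cytosolic ribosomal proteins had 25 lower and no higher calls after novelty (median -0.18).

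Of the naive calls, Fosl2 and Clspn were near 0 after novelty, at -0.02 (edgeR adjusted p = 0.956) and 0.08 (0.824). After exposure the controls of Fosl2 stood at 78.8 to 123 CPM and its cKO libraries at 75.3 to 122 CPM, so that the groups overlapped. Htr2c (-0.22) and Hcrtr2 (-0.22) did not pass after novelty, with adjusted p of 0.203 and 0.375. The difference between the naive and the novelty genotype effect was itself tested over all 24 libraries, and 0 of 16744 genes passed in edgeR (0% called), while 688 had an unadjusted p below 0.05. Of the 131 naive calls 12 were among the latter, with Clspn at 0.00524 and Fosl2 at 0.00992. Genes chosen for their naive difference reach a small unadjusted p here more readily, since that difference enters the test. The count of 12 therefore decides nothing. Among genes also tested in the naive comparison, the 2 of smallest p in the test over all 24 libraries were Gm15478 and Pla2g7. Gm15478, a predicted gene, had a difference of 1.56. Pla2g7, a secreted phospholipase that breaks down platelet-activating factor, had -0.34, and both genes had an adjusted p of 1.

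**Figure D5:**
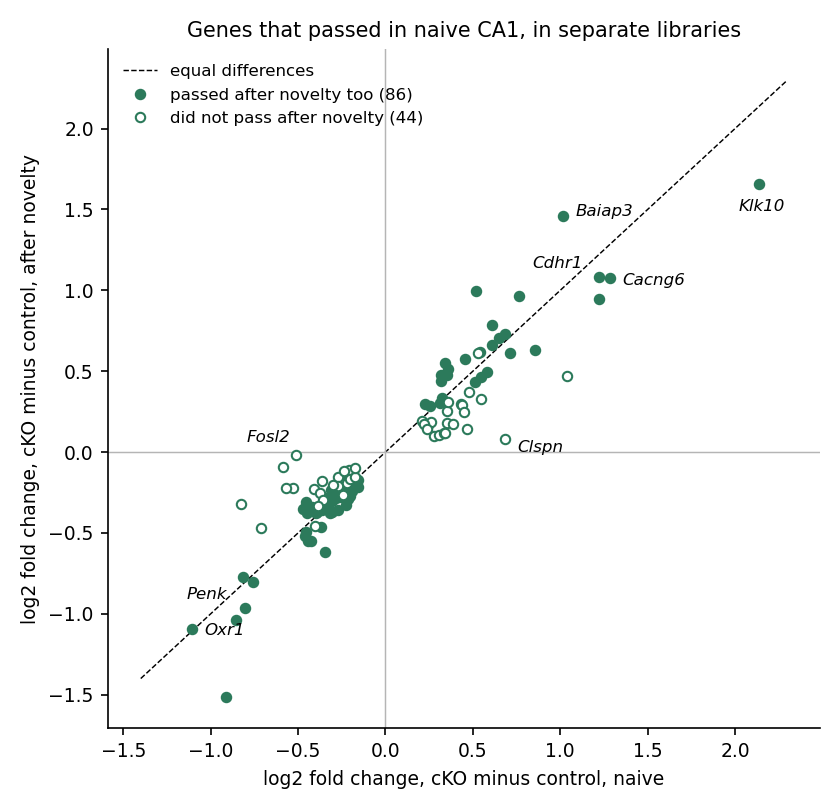
Log2 fold change, cKO minus control, in naive mice (x axis) and after novelty (y axis) for the 130 genes that passed in naive mice and were tested in both, with the dashed line marking equal differences. All points lie in the lower left or upper right of the plot, with equal signs; filled points (86) also passed after novelty, and Fosl2 and Clspn lie close to 0 on the y axis.

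Genes that fell and genes that rose differed in how strongly CA1 expresses them. The median control level per kilobase of exon was 26.0 CPM for the 81 lower genes, 2.21 CPM for the 50 higher genes and 4.94 CPM for all genes tested. When genes were split into quartiles of mean CPM, 52 of the 81 lower calls were in the highest quartile and 25 of the 50 higher calls in the second lowest. Over all genes of a quartile, the median log2 fold change went from 0.036 in the lowest to -0.025 in the highest. With upper-quartile scaling in place of TMM, the calls were 56 higher and 62 lower. Power to call a small change grows with read number. How far power or the scaling sets the split was not tested. All 50 higher genes are protein-coding, whereas 6 of the 81 lower ones are annotated pseudogenes (7.41%, against 4.81% of all genes tested). The X chromosome held 12 calls among 624 genes tested (1.92%, against 0.801% of all genes), 10 lower and 2 higher, with Slitrk4, Gria3, Htr2c and Rps4x among the lower and Pnck and Zfp185 the higher.

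In the authors' deposited table for the same comparison, 515 of 16217 genes passed an adjusted p of 0.05, 206 higher and 309 lower. All 131 genes called here passed in the authors' deposited table with the same sign. The log2 fold changes in that table had a median ratio of 0.981 to those given here. Some of the largest increases were smaller there by more. Klk10 stood at 1.334 against 2.14 here, Otop2 at 1.214 against 2.02 and Cacng6 at 1.057 against 1.29. Adamts18 (0.849 against 1.04) and Baiap3 (0.93 against 1.02) rose by less than 2-fold there.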

How the data were processed

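Libraries of polyadenylated RNA were made with the TruSeq RNA kit v2, which does not mark strand, and sequenced with paired-end and single-end kits, per the labels' protocols. The deposited files give raw read counts per Ensembl gene, made by the authors with STAR 2.3.0 and HTSeq on build GRCm38.p2, per the submitters' processing notes; the sources used here do not give the annotation release or the strand setting. The authors' deposited table of the naive comparison holds log2 fold changes and adjusted p-values, with DESeq2 named in the submitters' processing notes. Rows that name no gene (no feature, 7.58 to 10.31% of reads; no unique position, 15.02 to 17.97%) were left out of library sizes.

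Counts of the 12 naive libraries were filtered with filterByExpr (minimum count 10), scaled by TMM and tested with edgeR 4.0.16 (quasi-likelihood, robust; R 4.3.3), with Benjamini-Hochberg adjustment over all genes and a threshold of 0.05. The SE is that of the log2 fold change, from its F statistic. CPM were scaled by TMM over all 24 libraries. The novelty libraries were fitted the same way, and the interaction over all 24. Kat2a was also tested by exact permutation. Genes were named by rule: Kat2a, the 15 largest changes in each direction among genes that passed with a mean of at least 50 reads, excluding predicted models and pseudogenes and genes whose sign turned when any 1 library was left out, and up to 4 genes that passed in each list (where none passed, the gene of smallest p may be named). Members and lists were chosen with earlier results of these data known. Gene names came from the authors' table for 16217 genes and from GENCODE M21 for 20563, and 1575 stayed unnamed. No 2 libraries held identical counts. The fits were checked on simulated counts. Alternatives were DESeq2 1.42.0, limma 3.58.1 (voom), other scalings and filters, a replicate block, thinned counts and leaving out libraries.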

Additional observations from a re-analysis of the deposited data

Results flagged for a closer look

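In 6 of the 88 groups of 6 libraries tested (44 named genes, control and cKO), 1 library stood apart from the others by Dixon's criterion, which chance alone meets in about 1 in 20 groups. Control library 2, the shallowest of the 12, was highest for 3 genes. In it Rpl15 stood at 80.8 CPM, with the next library at 65.9 CPM. Vamp2 stood there at 1115 CPM, with the next at 1012 CPM, and Grm5 at 463.4 CPM, with the next at 422.9 CPM. In cKO library 2, Grem1 was lowest at 4.838 CPM, with the next at 6.157 CPM, and Clspn was lowest at 2.331 CPM, with the next at 3.029 CPM. Cpxm2 was highest in cKO library 3, at 7.895 CPM against 5.542 CPM in the next. Control and cKO libraries do not overlap for any of the 6 genes.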

How the results depend on the processing

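The direction of Kat2a and of all 131 genes was the same in every fit that left out 1 library. Such fits reuse the libraries on which the genes were called, so a sign could hardly turn. The number of calls depended on the settings. Of 131 naive calls (50 higher, 81 lower), DESeq2 gave 465 (176 and 289), a fit sharing 1 spread over 24 libraries 322 (130 and 192), counts thinned to equal depth 58 (18 and 40), libraries numbered 1 to 3 only 3 (2 and 1) and those numbered 4 and above 5 (1 and 4). Without cKO libraries 1 and 5, an alternative chosen after seeing the data, it was 55 (25 and 30). Leaving out 1 library gave 40 to 166 calls, 14 to 58 higher and 26 to 108 lower, the lowest without control library 6 and the highest without cKO library 4. After novelty, DESeq2 gave 1168 calls and leaving out 1 library 324 to 1025, the lowest without control library 2. The share of naive calls with the same sign after novelty was 80% for the 5 calls of libraries numbered 4 and above. The interaction gave 0 calls in every setting run. Scaling by RLE (134) or upper quartiles (118), no filter (130), a mean of at least 1 CPM (133) and voom (131) changed the count by less than 1.5 times. The calls with upper-quartile scaling were 56 higher and 62 lower. The causes of these differences were not tested; fits with fewer libraries or reads have less precision. Genes under about 50 reads per library rest on few counts.

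With the replicate number as a block, 70 genes passed (21 higher and 49 lower) in naive mice and 398 after novelty. Same-numbered control and cKO libraries deviated together with correlations of -0.141 to 0.34, and of the 6 numbers only number 6 correlated best with its own. The labels do not say whether same-numbered libraries share more than the number, and these correlations cannot settle it. Of the 43 named genes other than Kat2a, 25 stayed below 0.05 with the replicate block.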
